A study of Mus musculus with 18 samples.

Results

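Epithelium of the distal colon from mice lacking Rab11-FIP1 was compared with that of wild-type mice, with 3 libraries of each genotype, which are 6 of the 18 libraries of the series. All genes of the deposited count table were considered: 54532 genes, of which 21436 had no read in any library and 17692 held enough reads to be tested. The controls are labelled wild type and BL6 (BL6J in the design text), the knockouts Rab11-FIP1 KO, and the treatment of every library is given as none. The cells were detached with micro forceps from fresh colon in cold PBS with 30 mM EDTA and put into TRIzol, and polyadenylated RNA was sequenced. The other 12 libraries come from the proximal colon of both genotypes and from both segments of mice lacking Rab11-FIP2. They entered the model that estimated the spread and a pair of further comparisons. Neither the deleted part of Rab11fip1, nor a driver of the deletion, nor age or sex is stated in the labels. Nor do they tie the 3 libraries of a genotype to separate mice or litters, so the p-values measure the spread between these libraries, which may be technical.

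Rab11-FIP1, also called RCP, is an adaptor that binds the small GTPase Rab11 on recycling endosomes. From this compartment, receptors, transporters and adhesion proteins that were taken up from the surface return to the apical or lateral membrane, carried by motors such as myosin Vb. The distal colon is lined by absorptive colonocytes that take up sodium and water, by goblet cells that secrete mucus, and by rarer tuft and enteroendocrine cells, all renewed from stem cells at the crypt base.

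The 6 libraries held 12116329 to 16341098 counts each. Levels are given as CPM, counts scaled to library size with TMM factors. Changes are log2 ratios of FIP1 knockout over wild type ± SE, the standard error, and each adjusted p is from edgeR's quasi-likelihood test with Benjamini-Hochberg adjustment over all 17692 genes. A gene was called, and is said to have risen or fallen, at an adjusted p under 0.05. In bulk RNA, fewer cells of a type and less RNA per cell cannot be told apart. Along the first principal component of the 6 libraries, which held 64.3% of the variance, the wild-type libraries lay on one side and the knockout libraries on the other. The mitochondrially encoded genes took 18.1 to 32.3% of the counts in wild type and 12.8 to 18.2% in the knockout; with these genes removed before scaling 2889 genes were called instead of 2886.

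Rab11fip1 itself (ENSMUSG00000031488, GRCm38 chromosome 8, 27138773 to 27174646, minus strand) stood at 127, 92.0 and 128 CPM in wild type and at 50.6, 48.4 and 46.4 CPM in the knockout, so the groups did not overlap. It fell by 1.25 ± 0.22 (adjusted p = 0.00070), and reads over the gene remained in every knockout library. Of its partners, Rab11a, the GTPase it binds, rose by 0.83 ± 0.18 (adjusted p = 0.0040) from 104, 86.7 and 91.4 CPM to 140, 200 and 160 CPM. Rab25 (-0.10 ± 0.17, adjusted p = 0.76), the epithelial Rab11 relative, Myo5b (0.20 ± 0.16, adjusted p = 0.43), the myosin motor, and Rab11fip2 (-0.30 ± 0.27, adjusted p = 0.51) did not pass the test. Of 27 tested genes of the recycling endosome, exocyst and apical fusion machinery, 3 rose and 0 fell (11.1% called). Of all tested genes 8.84% rose and 7.47% fell. The number that rose was 5 with a filter of 10 CPM in 3 libraries, with the compared libraries alone, by DESeq2 and by limma on filtered FPKM. By limma on FPKM without a filter it was 7. Those that rose include Ehd4, an endosomal ATPase (1.46 ± 0.26, adjusted p = 0.00071), and Tfrc, the transferrin receptor. Tfrc, whose cargo is iron-loaded transferrin, rose from 280, 283 and 186 CPM to 1014, 864 and 916 CPM (1.90 ± 0.30, adjusted p = 0.00028). Against the same wild-type libraries, Rab11a (0.96 ± 0.18), Ehd4 (1.67 ± 0.26) and Tfrc (1.79 ± 0.30) were also called higher in the distal FIP2 knockout. None of these genes was called between the FIP1 and the FIP2 knockout.

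The cells of both genotypes carried the defining markers of colonic epithelium. Of 15 tested epithelial identity genes 2 rose and 0 fell (13.3% called), and in 7 the groups did not overlap. Of all tested genes 8.84% rose, 7.47% fell and 35.8% had groups that did not overlap. Without FIP1 knockout distal library 2 the number that rose was 1. Epcam, an epithelial adhesion protein, was at 1574, 1232 and 1631 CPM in wild type and 1637, 1807 and 1595 CPM in the knockout (0.18 ± 0.16, adjusted p = 0.50). Cdh1, E-cadherin, was at 821 to 1007 CPM and 891 to 909 CPM (-0.03 ± 0.17, adjusted p = 0.94). Hoxb13, a marker of the distal gut, was present at 165 to 183 CPM in wild type and at 90.0 to 138 CPM, without overlap, in the knockout, and the difference did not pass the test (-0.66 ± 0.52, adjusted p = 0.44).

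Of the 17692 genes, 1564 rose (8.84%) and 1322 fell (7.47%) in the FIP1 knockout, and 5201 had an unadjusted p under 0.05. Of the 2886 called genes, 1777 changed at least 2-fold and 820 at least 4-fold, and in 2795 the groups did not overlap, against 35.8% of all tested genes. Without FIP1 knockout distal library 3 the number called was 1775, of which 1719 were among the 2886. The median change over all tested genes was -0.00218.

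Clca4b, a member of the calcium-activated chloride channel regulator family (chromosome 3, 144910921 to 144932529), rose by 8.75 ± 0.50 (adjusted p = 4.6e-09), from 3.57, 4.04 and 8.56 CPM to 2114, 2051 and 2800 CPM. It thus went from a trace to a level above that of Cdh1 in each knockout library on the CPM scale, which is not adjusted for gene length. Reg3g, a secreted lectin that kills Gram-positive bacteria, rose by 9.72 ± 0.79, and its knockout libraries spread widely at 285, 715 and 89.4 CPM against 0, 0.288 and 1.00 CPM in wild type. Myl7, an atrial myosin light chain, rose by 6.21 ± 0.43 from 0.246, 0.361 and 0.669 CPM to 25.6, 35.4 and 34.3 CPM. Ccl8, a chemokine with no read in wild type, was at 2.40, 3.05 and 3.95 CPM in the knockout, at least 47.1-fold higher against a floor of 3 counts over the wild-type group.

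Among the falls, Ang4, a secreted ribonuclease with antimicrobial activity, dropped from 436, 519 and 308 CPM to 1.47, 4.95 and 7.66 CPM (-6.50 ± 1.07, adjusted p = 0.00037). Pnp2, a purine nucleoside phosphorylase gene next to its paralog, went from 18.6, 20.3 and 25.2 CPM to 0.60, 0.247 and 0.124 CPM (-5.95 ± 0.38, adjusted p = 9.9e-09). Sycn, which encodes a secretory granule protein, fell from 711, 526 and 529 CPM to 32.6, 43.9 and 31.6 CPM (-4.03 ± 0.46, adjusted p = 8.2e-06). In each of these 3 genes the lowest wild-type library stood well above the highest knockout library. Further falls under the same rule were Rims4 (-5.01 ± 0.48), a synaptic scaffold gene, and Pbld1 (-4.09 ± 0.44).

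**Figure D1:**
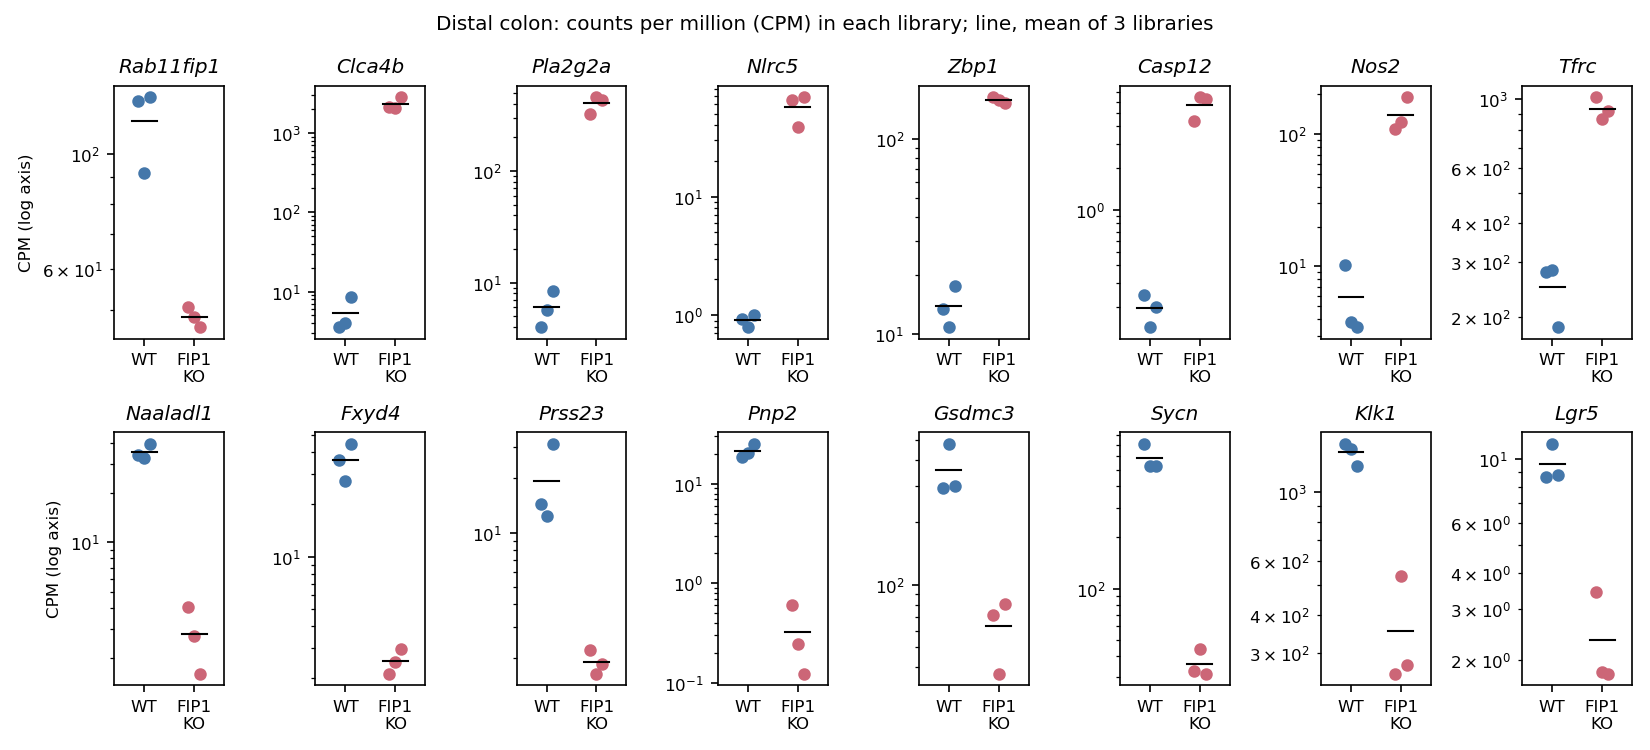
Level of 16 genes in each distal library, in CPM on a log axis of its own range per gene; blue points are the 3 wild-type libraries, red points the 3 FIP1 knockout libraries, and the line is the mean of 3. In all 16 the groups do not overlap, from Clca4b, at 3.57 to 8.56 CPM against 2051 to 2800 CPM, to Lgr5, at 8.67 to 11.3 CPM against 1.79 to 3.44 CPM.

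Interferons act through cell-surface receptors and JAK kinases, which phosphorylate STAT proteins. STAT dimers and complexes bind short elements in promoters of genes such as the immunity-related GTPases and guanylate-binding proteins, which attack vacuoles that hold microbes. The promoters of 5 such genes are shown because all 5 rose and hold the letters these complexes recognise. Each stretch is the 120 bases before the annotated start (RefSeq, build GRCm38.p6). Capitals mark the interferon response core, GAAA and GAAA with any 2 bases between them, on either strand, and, in Irgm2 and Igtp, also the GAS core TTCNNNGAA.
Irgm1, chr11:48871421-48871540, minus strand: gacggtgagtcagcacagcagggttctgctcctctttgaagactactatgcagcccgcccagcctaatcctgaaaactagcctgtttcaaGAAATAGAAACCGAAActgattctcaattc
Irgm2, chr11:58214857-58214976, plus strand: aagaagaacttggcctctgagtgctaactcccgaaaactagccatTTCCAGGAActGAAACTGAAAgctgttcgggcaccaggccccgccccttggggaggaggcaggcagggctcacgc
Igtp, chr11:58199436-58199555, plus strand: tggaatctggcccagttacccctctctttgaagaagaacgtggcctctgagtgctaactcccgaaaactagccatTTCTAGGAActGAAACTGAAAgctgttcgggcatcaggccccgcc
Gbp2, chr3:142620543-142620662, plus strand: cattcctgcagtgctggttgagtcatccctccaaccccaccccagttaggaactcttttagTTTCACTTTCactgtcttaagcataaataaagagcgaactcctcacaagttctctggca
Gbp3, chr3:142559924-142560043, plus strand: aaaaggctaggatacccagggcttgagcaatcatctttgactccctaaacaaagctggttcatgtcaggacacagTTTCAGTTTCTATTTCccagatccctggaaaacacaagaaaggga
In Irgm2 the GAS core spans bases 75 to 67 before the start and the interferon response core bases 64 to 55, and in Igtp they span bases 45 to 37 and 34 to 25, in the same order.

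Of the 15 tested immunity-related GTPases, 14 rose and 0 fell, with a median change of 4.20, and of 10 guanylate-binding proteins 9 rose and 0 fell, with a median of 3.04. Leaving out any 1 of the 6 libraries left 14 and 9 called. Over all tested genes 8.84% rose and 7.47% fell. Among the GTPases, 2 had no read in any distal wild-type library, passed the filter through other libraries and could not have been called lower. The absence of falls among the GTPases therefore carries little weight. Irgm2 rose from 8.85, 10.2 and 10.1 CPM to 84.6, 57.3 and 86.0 CPM (2.97 ± 0.28, adjusted p = 9.0e-07), and Igtp from 6.15, 4.33 and 7.09 CPM to 80.1, 41.5 and 73.2 CPM (3.47 ± 0.38, adjusted p = 6.0e-06). Gbp2 rose from 19.5, 13.3 and 22.1 CPM to 158, 104 and 193 CPM (3.05 ± 0.43, adjusted p = 8.7e-05). In each of these genes knockout library 2 was the lowest of the knockout libraries and stayed above every wild-type library. The annotated spans of Igtp (58199556 to 58207591) and Irgm2 (58199618 to 58222782) overlap on the plus strand. How the reads were divided between this pair is therefore uncertain. Irgm1 (1.85 ± 0.24) and Gbp3 (2.92 ± 0.33) also rose, and Iigp1, at 0.535 to 1.17 CPM in wild type, reached 42.2 to 74.6 CPM (6.08 ± 0.51).

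The interferon response core was found in 7 of 11 promoters of the immunity-related GTPases (63.6%), 4 of 5 of the guanylate-binding proteins (80%) and 20 of 42 of the antiviral interferon-stimulated genes (47.6%). Of the 14831 promoters of tested genes, 3.13% held it, and 3.44% of all 32851 promoters did. The GAS core was in 45.5, 40 and 19% of the same lists and in 7.05% of the promoters of tested genes. These promoters cover 250 bases before and 50 after the start, and a match is a run of letters, not a site shown to be bound. Not every tested gene has an entry: 11656 genes do.

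Upstream of these genes, the receptor chains Ifngr1 (0.06 ± 0.20, adjusted p = 0.88) and Ifngr2 (-0.02 ± 0.19, adjusted p = 0.95) were at similar levels in both genotypes, at 280 to 467 CPM and 340 to 437 CPM for Ifngr1. Stat2, a transcription factor of the interferon pathway, rose from 33.4, 44.5 and 42.9 CPM to 104, 62.0 and 81.2 CPM (1.03 ± 0.25, adjusted p = 0.0071). Socs3, an inhibitor of this signalling that cytokines of the interleukin-6 family also raise, went from 6.09, 8.15 and 8.49 CPM to 76.0, 66.9 and 53.5 CPM (3.11 ± 0.47, adjusted p = 0.00016). Usp18, another inhibitor, rose by 3.0 ± 0.37. Irf3, which starts the interferon response to viral nucleic acid, fell by 0.83 ± 0.14 (adjusted p = 0.00055). In all, 8 of the 24 tested genes of this signalling list rose and 1 fell, and without wild-type distal library 2 the number that rose was 5.

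Nlrc5, the activator of class I antigen presentation genes, rose from 0.922, 0.793 and 1.00 CPM to 65.1, 38.8 and 68.5 CPM (5.97 ± 0.37, adjusted p = 5.9e-09). Of 25 tested class I presentation genes 19 rose, and of 12 class II genes 10 rose, with medians of 1.19 and 3.85 and 0 lower in either. Tap1, which pumps peptides into the endoplasmic reticulum, rose by 2.93 ± 0.32, and B2m, the light chain of class I molecules, went from 310, 248 and 361 CPM to 1091, 1332 and 1588 CPM (2.13 ± 0.23).

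Transcripts of some other cell types moved with the genotype and stand beside these results. Of 26 tested genes of B cells, plasma cells and IgA transport 19 rose. That number was 10 without FIP1 knockout distal library 3 or wild-type distal library 1, and 11 without FIP1 knockout distal library 1 or wild-type distal library 2. Their summed level of 5095 to 5665 CPM in wild type and 7272 to 7630 CPM in the knockout was mostly Pigr, the epithelial IgA transporter, at 4705 to 5306 CPM and 6389 to 6595 CPM (0.37 ± 0.23, adjusted p = 0.31). Of 35 tested T and cytotoxic lymphocyte genes 17 rose and 1 fell (11 rose without FIP1 knockout distal library 3). The summed level overlapped, at 87.3 to 171 CPM and 90.4 to 116 CPM. Cd8a rose from 0.492, 0.721 and 0.869 CPM to 2.73, 2.23 and 3.15 CPM (1.96 ± 0.31). Of 21 tested macrophage and dendritic cell genes 4 rose (2 without wild-type distal library 2), with sums of 56.5 to 108 CPM and 114 to 140 CPM. Of 18 listed neutrophil and mast cell genes 7 were tested, of which 4 rose and 2 fell, with a median of 3.15 and sums of 135 to 232 CPM and 248 to 286 CPM. The number that fell was 0, and the number that rose 3, without FIP1 knockout distal library 3 or without wild-type distal library 2 or 3, and 1 fell without FIP1 knockout distal library 1. Mcpt1, a protease of mucosal mast cells, rose from 0.123, 0.865 and 1.27 CPM to 11.2, 8.66 and 9.76 CPM (3.73 ± 0.64, adjusted p = 0.00055), and Mcpt2, a related protease, by 3.15 ± 0.62 (adjusted p = 0.0019). S100a8, a neutrophil calprotectin subunit, had no read in wild type and was at 1.69, 1.81 and 1.54 CPM in the knockout, at least 25.3-fold higher against the floor of 3 counts. Of the tested lymphocyte and plasma cell markers, Fasl and Ighg2c had no read in any wild-type library either, and Ighg2c was at 2.64 to 4.82 CPM in the knockout. Mcpt1 and S100a8 were low beside the knockout sum of 248 to 286 CPM for the neutrophil and mast cell genes. Other members of that list held most of the sum, and its 2 genes that fell are not named here. The part of these cells in the interferon-related and class II changes was not tested.

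Of the 63 tested immunoglobulin variable gene segments of the annotation, 54 rose and 0 fell, and of 10 constant genes 8 rose and 0 fell. Of all tested genes 8.84% rose and 7.47% fell. Segments with few wild-type reads could pass the filter through other groups and could then hardly be called lower. The absence of falls therefore carries little weight. In the window from 65 to 70 Mb of chromosome 6, which holds kappa segments, 23 of 41 tested genes rose, and from 115 to 120 Mb of chromosome 12, which holds heavy chain segments, 13 of 27 rose and 1 fell. Igha, the IgA heavy chain, was at 1.72, 6.49 and 16.9 CPM in wild type and 315, 182 and 296 CPM in the knockout (4.98 ± 0.70, adjusted p = 8.8e-05). Segments resemble each other, so reads may have been divided between them. Of 22 tested fibroblast genes 10 rose, with sums of 29.8 to 65.8 CPM and 69.9 to 211 CPM. That number was 4 without FIP1 knockout distal library 3, 6 without library 1, and 5 without any 1 wild-type distal library. Of 9 tested smooth muscle genes 0 rose and 0 fell. Of 9 tested endothelial genes 0 rose and 1 fell (median -0.11). Of 10 tested genes of enteric neurons and glia 0 rose and 1 fell (median -0.37).

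Cells can respond to microbial products and interferon by inflammatory forms of death: ZBP1 and RIPK3 drive MLKL to break the membrane in necroptosis, and inflammatory caspases cut gasdermins in pyroptosis. All 3 genes of the necroptotic chain rose. Zbp1 went from 13.5, 10.8 and 17.5 CPM to 164, 160 and 153 CPM (3.51 ± 0.33, adjusted p = 8.1e-07), Ripk3 from 19.0, 20.3 and 20.5 CPM to 55.6, 57.4 and 56.7 CPM (1.5 ± 0.16, adjusted p = 3.2e-06), and Mlkl by 1.65 ± 0.19 (adjusted p = 7.3e-06). The knockout libraries of Ripk3 lay within 2 CPM of each other. Of the caspases, Casp4, which senses lipopolysaccharide, rose by 1.49 ± 0.19, and Casp12 went from 0.246, 0.144 and 0.201 CPM to 4.37, 6.43 and 6.24 CPM (4.78 ± 0.35, adjusted p = 5.6e-08). The gasdermin C genes went the other way: Gsdmc3 fell from 292, 476 and 299 CPM to 71.8, 37.3 and 80.8 CPM (-2.49 ± 0.39, adjusted p = 0.00024), and Gsdmc2 fell by 1.93 ± 0.39. Gsdmc2, Gsdmc3 and Gsdmc4 are close paralogs between which reads may have been divided. Of the 26 tested genes of this list 5 rose and 3 fell, with a median change of 0.22.

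Among 19 tested microbial sensors 6 rose and 1 fell. Nod2, the cytosolic sensor of bacterial muramyl dipeptide, rose from 1.04, 1.44 and 0.669 CPM to 6.11, 5.77 and 5.50 CPM (2.46 ± 0.33, adjusted p = 5.1e-05). Tlr3, which senses double-stranded RNA, rose from 28.2, 27.4 and 27.7 CPM to 60.3, 60.8 and 63.8 CPM (1.15 ± 0.17, adjusted p = 0.00016). In both genes the spread within a genotype was small beside the difference.

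The antimicrobial and oxidant genes moved in both directions, with 18 of 38 tested members higher and 5 lower. Pla2g2a, a secreted phospholipase that lyses bacterial membranes (chromosome 4, 138831857 to 138835186), rose from 4.0, 5.70 and 8.36 CPM to 323, 456 and 430 CPM (6.07 ± 0.36, adjusted p = 4.6e-09). C57BL/6 mice are known to carry a defective Pla2g2a allele, and the annotation lists the gene as a polymorphic pseudogene; sequence variants were not analysed here. Nos2, the inducible nitric oxide synthase, rose from 10.3, 3.82 and 3.48 CPM to 110, 123 and 190 CPM (4.57 ± 0.45). Epithelial oxidases rose as well: Nox1 by 1.98 ± 0.44 (adjusted p = 0.0047) and Duox2, which makes hydrogen peroxide at the apical surface, from 195, 136 and 163 CPM to 510, 438 and 526 CPM (1.58 ± 0.26, adjusted p = 0.00040). Ido1, which degrades tryptophan, rose by 4.28 ± 0.40. Ang, angiogenin, a relative of Ang4, fell from 14.7, 13.3 and 13.7 CPM to 3.77, 4.53 and 3.83 CPM (-1.79 ± 0.20, adjusted p = 7.9e-06). Lcn2, an iron-chelator binding protein, was at 0.0721 to 1.07 CPM and 1.42 to 8.08 CPM and did not pass the test (2.72 ± 1.18, adjusted p = 0.13).

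Cytosolic heat shock proteins fold other proteins, and heat shock factor raises their genes when proteins misfold, through elements made of alternating GAA and TTC. Of 19 tested genes of this response 13 fell and 0 rose in the FIP1 knockout, with a median change of -0.76. The number that fell was 6 without FIP1 knockout distal library 3 or without wild-type distal library 1, and 8 without wild-type distal library 2, and by limma on the deposited FPKM it was 4. The 2 inducible Hsp70 genes had the largest changes, and 120 bases before their starts are shown with the core GAANNTTC in capitals.
Hspa1a, chr17:34972157-34972276, minus strand: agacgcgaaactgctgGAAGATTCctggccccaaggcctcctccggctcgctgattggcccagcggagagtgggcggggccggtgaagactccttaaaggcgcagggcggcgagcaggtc
Hspa1b, chr17:34959239-34959358, minus strand: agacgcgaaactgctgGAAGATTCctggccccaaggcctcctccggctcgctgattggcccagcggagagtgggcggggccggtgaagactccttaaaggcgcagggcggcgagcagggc
The stretches differ at 1 of 120 bases, and the transcripts are near-identical too, so how the reads were divided between these genes is uncertain. The core was found in 10 of 21 promoters of the list (47.6%) and in 5.87% of the promoters of tested genes.

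Hspa1b was at 360, 93.3 and 36.0 CPM in wild type and 10.5, 14.8 and 6.18 CPM in the knockout (-3.97 ± 0.67, adjusted p = 0.00051), and Hspa1a at 116, 28.1 and 8.56 CPM and 1.91, 2.80 and 1.30 CPM (-4.69 ± 0.82, adjusted p = 0.00065). The wild-type libraries were far apart, with library 1 the highest and library 3 the lowest, and the lowest still exceeded every knockout library. Hsph1, a nucleotide exchange factor of Hsp70, fell from 335, 209 and 92.8 CPM to 60.2, 46.9 and 42.9 CPM (-2.09 ± 0.39, adjusted p = 0.0011), and Hsp90ab1, the constitutive Hsp90, by 1.00 ± 0.23 (adjusted p = 0.0064; this call was lost by limma on FPKM). The summed level of the list was 7334, 5954 and 3844 CPM in wild-type libraries 1, 2 and 3 and 3002 to 3339 CPM in the knockout. The part of handling time or temperature before lysis in these genes was not tested.

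**Figure D2:**
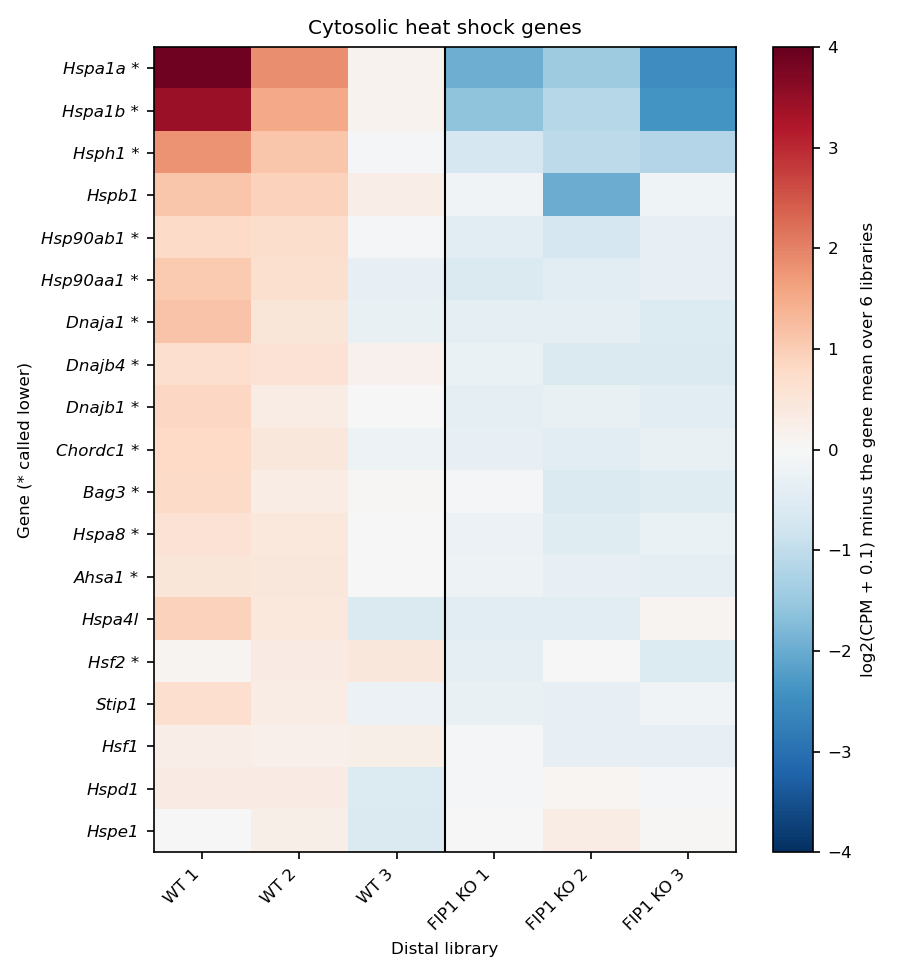
The 19 tested cytosolic heat shock genes (rows) in the 6 distal libraries (columns), as log2(CPM + 0.1) minus each gene's mean over the 6 libraries; asterisks mark the 13 called lower. Wild-type library 1 holds the highest value for 16 of the 19 genes.

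Goblet cells secrete the gel-forming mucin Muc2, and colonocytes carry membrane mucins. The secreted mucus genes did not pass the test: Muc2 was at 3333, 3298 and 4059 CPM and 5068, 4074 and 1920 CPM (0.05 ± 0.32, adjusted p = 0.94), Tff3, a trefoil peptide, changed by -0.02 ± 0.30 (adjusted p = 0.98), Fcgbp by -0.15 ± 0.31 (adjusted p = 0.80) and Clca1 by -0.88 ± 0.41 (adjusted p = 0.16). The membrane mucin Muc13 rose from 2083, 1674 and 2140 CPM to 4263, 4000 and 3830 CPM (1.04 ± 0.19, adjusted p = 0.0012), and Muc1 rose by 2.25 ± 0.47 (adjusted p = 0.0031). Beside Clca4b, its neighbours in the gene cluster Clca4a (1.5 ± 0.35, adjusted p = 0.0060) and Clca3b (1.57 ± 0.34, adjusted p = 0.0037) rose by much less. Klk1, a kallikrein protease of goblet cells, fell from 1437, 1385 and 1223 CPM to 258, 535 and 274 CPM (-1.92 ± 0.28, adjusted p = 0.00010). In all, 7 of 29 tested goblet and mucus genes rose and 3 fell (1 without FIP1 knockout distal library 3), with a median change of -0.02. Of 35 enzymes that build or sulfate mucin glycans 5 rose and 5 fell. Of the falls 0 to 2 were called with any 1 of the 6 libraries left out, and of the rises 3 without FIP1 knockout distal library 2 or wild-type distal library 3. Fut2, which adds the terminal fucose that gut bacteria feed on, rose from 148, 162 and 151 CPM to 532, 573 and 463 CPM (1.77 ± 0.19, adjusted p = 3.7e-06), and B3galt5, which extends glycan chains, rose by 1.05 ± 0.24 (adjusted p = 0.0057).

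Aldosterone drives sodium uptake in the distal colon through the channel ENaC and the sodium pump. Of 25 tested genes of this system 5 fell and 0 rose (2 fell without FIP1 knockout distal library 3 or without wild-type distal library 3). Fxyd4, a regulator of the sodium pump (chromosome 6, 117933559 to 117937692), went from 36.0, 27.2 and 44.5 CPM to 2.13, 2.47 and 2.96 CPM (-3.83 ± 0.39, adjusted p = 2.1e-06). Prss23, a serine protease, fell from 14.4, 12.4 and 31.0 CPM to 2.24, 1.65 and 1.85 CPM (-3.32 ± 0.38, adjusted p = 9.2e-06). The channel subunits Scnn1b (-0.22 ± 0.20, adjusted p = 0.50) and Scnn1g (0.48 ± 0.34, adjusted p = 0.37) did not pass the test. Of 24 tested genes of chloride, bicarbonate and proton exchange 2 rose and 3 fell (20.8% called), with a median change of -0.07. For comparison with this list and the sodium list, 8.84% of all tested genes rose and 7.47% fell. The called members of the exchange list are therefore given as single genes, not as a shift of the whole list. Car2, a cytosolic carbonic anhydrase, fell from 1394, 1070 and 1013 CPM to 476, 534 and 540 CPM (-1.17 ± 0.21, adjusted p = 0.00088), and Best2, the bicarbonate channel of goblet cells, from 60.7, 86.5 and 96.4 CPM to 27.6, 27.9 and 28.5 CPM (-1.54 ± 0.29, adjusted p = 0.0012). Car12, a membrane carbonic anhydrase, rose from 11.5, 14.0 and 13.0 CPM to 64.1, 70.8 and 32.2 CPM (2.12 ± 0.26, adjusted p = 2.5e-05). Slc51b, a subunit of the basolateral bile acid exporter, rose by 2.15 ± 0.30 (adjusted p = 9.3e-05). Slc26a3, the chloride and bicarbonate exchanger of the colon (0.19 ± 0.33, adjusted p = 0.76), and Aqp8, a water channel (-0.55 ± 0.37, adjusted p = 0.36), did not pass.

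Of 18 tested iron, zinc and metallothionein genes 4 rose and 4 fell. The rises were 2 without FIP1 knockout distal library 1 or 2 or wild-type distal library 2, and the falls 2 without FIP1 knockout distal library 1 or 3 or wild-type distal library 3. Opposite to Tfrc, Ftl1, the ferritin light chain that stores iron, fell from 505, 373 and 632 CPM to 112, 270 and 160 CPM (-1.48 ± 0.32, adjusted p = 0.0039). Slc39a4, the zinc importer of the gut, rose by 1.07 ± 0.26 (adjusted p = 0.0078). Slc30a10, a manganese exporter, fell from 116, 69.7 and 82.2 CPM to 8.51, 25.3 and 5.37 CPM (-2.79 ± 0.51, adjusted p = 0.00092).

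Lgr5, the receptor that marks crypt base stem cells, fell from 8.67, 11.3 and 8.76 CPM to 3.44, 1.81 and 1.79 CPM (-2.0 ± 0.39, adjusted p = 0.0016), and Cd44, a Wnt target and hyaluronan receptor, rose from 10.2, 14.7 and 10.6 CPM to 41.2, 45.2 and 37.0 CPM (1.80 ± 0.32, adjusted p = 0.00089). Of 20 tested stem cell and Wnt genes 2 rose and 4 fell. The falls were 2 without FIP1 knockout distal library 2 or 3 and 1 without wild-type distal library 2, and the rises 1 without FIP1 knockout distal library 1 or 2 or wild-type distal library 2. Of 40 tested genes of DNA replication and mitosis 14 rose and 0 fell, with a median of 0.80. That count rests on wild-type library 3, the lowest in division genes, and on library 2, the highest: 4 rose without the former and 31 without the latter. It was 6 without wild-type distal library 1, and 8 and 7 without FIP1 knockout distal library 1 and 3. The summed level was 930, 1292 and 630 CPM in wild-type libraries 1, 2 and 3 and 1357 to 1688 CPM in the knockout. Mcm3, a subunit of the replicative helicase, rose from 10.8, 14.0 and 6.08 CPM to 23.5, 26.8 and 26.2 CPM (1.31 ± 0.23, adjusted p = 0.00066), while Mki67, a marker of cycling cells, did not pass (0.57 ± 0.26, adjusted p = 0.16).

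Ligands of the EGF receptor drive repair of the epithelium. Of 16 tested receptor family members and ligands 5 rose and 1 fell, and of 25 genes of fetal-like repair epithelium 9 rose and 1 fell. Areg rose from 15.6, 9.81 and 16.6 CPM to 32.5, 42.0 and 36.4 CPM (1.40 ± 0.30, adjusted p = 0.0036), and Hbegf from 5.78, 5.84 and 8.76 CPM to 20.6, 19.4 and 16.9 CPM (1.48 ± 0.23, adjusted p = 0.00025). Epgn, a ligand with no read in wild type, was at 1.09, 1.98 and 0.741 CPM, at least 19.1-fold higher against the floor of 3 counts. Ly6a, a surface protein of regenerating epithelium that interferon also raises, went from 96.7, 45.7 and 97.5 CPM to 758, 661 and 922 CPM (3.29 ± 0.40).

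Among differentiated cells, 9 of 24 tested tuft cell genes fell and 0 rose (4 fell without FIP1 knockout distal library 3 and 5 without wild-type distal library 3). Their summed level overlapped, at 469 to 652 CPM in wild type and 450 to 516 CPM in the knockout. Dclk1, a kinase that marks tuft cells, fell from 12.3, 12.4 and 11.6 CPM to 4.26, 4.29 and 4.26 CPM (-1.5 ± 0.25, adjusted p = 0.00049), and Trpm5, their taste-type channel, fell by 1.81 ± 0.36. Enteroendocrine genes showed no common direction, with 2 of 28 higher and 2 lower. The rises were 1 without FIP1 knockout distal library 2 or wild-type distal library 3. The falls were 0 without FIP1 knockout distal library 1 or 3, and 1 without any of the other 4 libraries. Tac1, the substance P precursor of enterochromaffin cells, stood out with a rise from 5.84, 4.47 and 5.22 CPM to 37.3, 43.3 and 51.5 CPM (3.08 ± 0.34, adjusted p = 4.7e-06). In the colonocyte brush border, Naaladl1, a peptidase, fell from 33.6, 32.2 and 39.4 CPM to 4.04, 2.72 and 1.61 CPM (-3.64 ± 0.49, adjusted p = 5.4e-05). Mgam, the maltase-glucoamylase, rose by 0.84 ± 0.15 (adjusted p = 0.00096), and Krt20, a keratin of mature colonocytes, by 1.25 ± 0.26 (adjusted p = 0.0031). In all, 2 of 28 tested brush border and digestive enzyme genes rose and 4 fell (21.4% called), with a median change of -0.30. Of 33 tested junction genes 4 rose (2 without FIP1 knockout distal library 2 or wild-type distal library 3) and 1 fell. That is 15.2% called, while 8.84% of all tested genes rose and 7.47% fell. Cdh17, liver-intestine cadherin, went from 765, 510 and 727 CPM to 1245, 1529 and 1287 CPM (1.02 ± 0.19, adjusted p = 0.0012), and Dsc2, a desmosomal cadherin, rose by 1.00 ± 0.18, while Tjp1, a tight junction scaffold, was at 110 to 153 CPM in wild type and 126 to 153 CPM in the knockout (0.05 ± 0.20, adjusted p = 0.91).

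Of 35 tested cholesterol genes 18 rose and 2 fell, with a median of 0.64. The falls were 0 without FIP1 knockout distal library 2 or 3 or wild-type distal library 3, and 1 without wild-type distal library 2. Sqle, which oxidises squalene on the way to cholesterol, went from 63.1, 43.1 and 35.4 CPM to 135, 154 and 150.0 CPM (1.63 ± 0.23, adjusted p = 7.8e-05), and the groups did not overlap. Of 22 tested fatty acid and triglyceride synthesis genes 9 rose and 1 fell, with a median of 0.43. Fads1, a desaturase, rose from 3.26, 3.39 and 3.48 CPM to 16.0, 10.6 and 11.3 CPM (1.91 ± 0.28, adjusted p = 0.00012), and Acaca, which makes malonyl-CoA, by 0.82 ± 0.15 (adjusted p = 0.0013).

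Of 26 tested cytochromes P450 of families 1 to 4, 8 fell (5 without FIP1 knockout distal library 3 or without wild-type distal library 3) and 3 rose (0 without FIP1 knockout distal library 2 or wild-type distal library 1 or 3, and 1 without wild-type distal library 2), and of 45 tested conjugating enzymes and carboxylesterases 13 fell and 2 rose (1 without FIP1 knockout distal library 2). The medians were -0.25 (-0.13 with members lacking reads at their bounds) and -0.37. Ces2a, an esterase, fell from 703, 418 and 920 CPM to 159, 163 and 95.9 CPM (-2.29 ± 0.35, adjusted p = 0.00018), and Ces1d from 19.0, 20.1 and 20.9 CPM to 3.66, 3.79 and 3.46 CPM (-2.46 ± 0.26, adjusted p = 4.3e-06). Abcb1a, the apical drug pump P-glycoprotein, fell from 1364, 753 and 1840 CPM to 468, 549 and 466 CPM (-1.42 ± 0.30, adjusted p = 0.0028). Of 19 tested clock genes 9 fell and 1 rose, with a median of -0.71 (6 fell without wild-type distal library 3). Dbp, a clock output factor, went from 85.4, 64.3 and 120 CPM to 25, 15.9 and 16.9 CPM (-2.21 ± 0.34, adjusted p = 0.00021), and Nr1d1, the repressor REV-ERB alpha, fell by 1.61 ± 0.32 (adjusted p = 0.0020). These genes oscillate over the day, and the hour of collection is not given in the labels, so genotype and hour cannot be told apart for them.

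**Figure D3:**
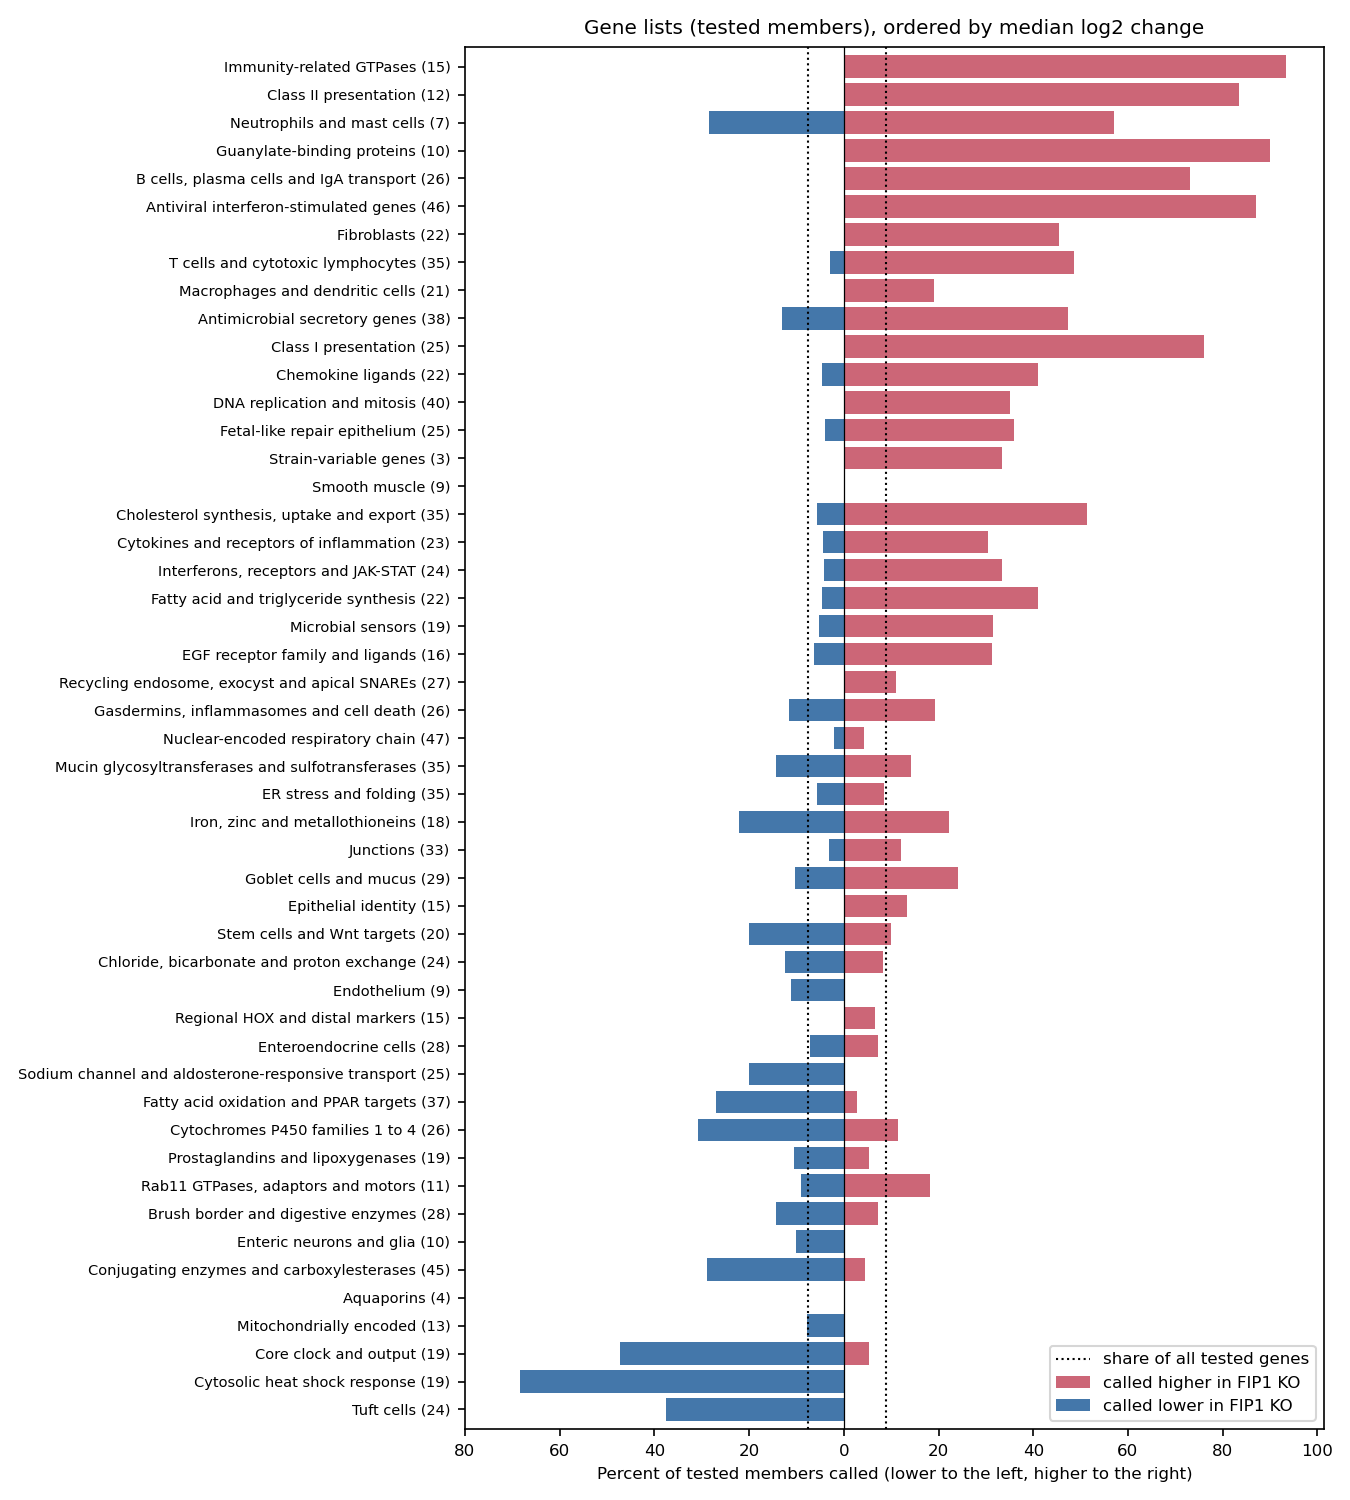
Share of the tested members of each of 49 gene lists called higher (red, right) or lower (blue, left) in the distal FIP1 knockout, with the number tested in brackets and lists ordered by median log2 change. Dotted lines mark the shares of all tested genes, 8.84% higher and 7.47% lower. Immunity-related GTPases lie at the top, and tuft cell and cytosolic heat shock genes at the bottom.

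Zfp990 and Zfp979, zinc finger genes on chromosome 4, behaved as present or absent. Zfp990 (145510759 to 145539188) had no read in wild type, stood at 12.5, 12.5 and 7.78 CPM in the knockout, at least 164-fold higher against the floor of 3 counts over the group. Zfp979 (147611937 to 147642513) had 1 read over all wild-type libraries and 356 in the knockout, a ratio of 344 (95% counting interval 61.4 to 13600), with knockout values of 7.31, 7.42 and 8.15 CPM. In FIP2 knockout distal libraries both were as low as in wild type, Zfp990 with no read and Zfp979 at 0, 0.0449 and 0 CPM. The window from 145 to 150 Mb of chromosome 4 held 63 tested genes, of which 12 rose and 2 fell, and 7 of them differed between the FIP1 and the FIP2 knockout (11.1%). Of 9 tested genes there with a Zfp symbol, 5 rose and 0 fell, while 8.84% of all tested genes rose and 7.47% fell. Members with no or 1 wild-type read, such as Zfp990 and Zfp979, passed the filter through other libraries and could not have been called lower. The absence of falls therefore carries little weight. Further members, chosen after their values were seen, were Zfp985, with no read in wild type and 0.491, 0.660 and 0.926 CPM in the knockout, and Zfp992, at 3.44, 2.52 and 1.54 CPM against 6.17, 6.68 and 8.15 CPM. Genes of this cluster resemble each other, so reads may have been divided between copies. Within 5 Mb of Rab11fip1 on chromosome 8, 5 of 73 tested genes rose and 4 fell (12.3% called), and 0 differed between the knockouts. The part of strain background in these windows was not tested.

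The FIP1 and FIP2 knockouts were compared directly in the distal colon, where neither group shares a library with the other. In the FIP1 knockout 215 genes were higher (1.22%) and 114 lower (0.644%). Rab11fip1 was among the latter (-1.45 ± 0.22, adjusted p = 0.0011). Pla2g2a was at 28.4 to 51.1 CPM in FIP2 knockout libraries and higher by 3.45 in the FIP1 knockout (adjusted p = 2.0e-06). Pnp2 was lower by -4.90 ± 0.38 (adjusted p = 4.4e-07), Reg3b, a lectin related to Reg3g, was higher by 4.40 ± 0.75 (adjusted p = 0.0034), and Igha was higher by 3.43 (adjusted p = 0.0076). Ang, at 14.6 to 18.2 CPM in the FIP2 knockout, was lower by -1.98 in the FIP1 knockout (adjusted p = 6.8e-06). The heat shock genes differed too: 11 of the 19 were lower in the FIP1 than in the FIP2 knockout and 0 higher. Hsph1 was at 359, 337 and 269 CPM in the FIP2 knockout and lower by -2.68 in the FIP1 knockout (adjusted p = 0.00080), and Hsp90aa1 was lower by -2.20 (adjusted p = 0.00069). Scnn1b and Scnn1g went the other way, higher in the FIP1 than in the FIP2 knockout by 1.21 (adjusted p = 0.0030) and 2.06 (adjusted p = 0.0037), and so did Slc30a10 (5.03 ± 0.71, adjusted p = 0.00053). None of the 46 tested antiviral genes, 15 immunity-related GTPases and 10 guanylate-binding proteins differed between the knockouts by this test, which does not show that they act alike: the difference was -0.32 ± 0.25 (adjusted p = 0.605) for Irgm2 and -0.68 ± 0.39 (adjusted p = 0.451) for Gbp2.

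The FIP1 effect was also compared between segments, as the distal minus the proximal change. Distal and proximal libraries were treated as independent, and a pairing of segments by mouse within a genotype was not tested. The signed difference was positive for 90 genes (0.509%) and negative for 24 (0.136%); it does not give the size of the effect in either segment. Clca4b rose by 5.37 proximally, where it reached 520 ± 192 CPM (SD, n = 3), so its distal change was larger by 3.38 (adjusted p = 0.0046). Casp12, Ifi47, an interferon-inducible GTPase, Tac1 and Car12 also had larger log2 rises distally, by 2.87 (adjusted p = 0.0046), 3.06 (adjusted p = 0.0044), 2.72 (adjusted p = 0.0096) and 2.05 (adjusted p = 0.011). Ifi47 reached similar knockout means of 74.3 CPM distally and 72.6 CPM proximally, from 1.66 and 13.6 CPM in wild type. For Scd1, a desaturase, the changes had opposite signs, 1.5 distally and -1.86 proximally (difference 3.37, adjusted p = 0.0027), and so had those of Cxcl5, a neutrophil chemokine, at 3.28 and -3.01 (difference 6.29, adjusted p = 0.0039). Fxyd4 was already low in the proximal colon, at 0.399 ± 0.349 CPM in wild type and 0.382 ± 0.249 CPM in the knockout (SD, n = 3), and its difference of -3.80 (adjusted p = 0.027) did not pass when FIP1 knockout distal library 1, proximal library 1 or 3, or wild-type distal library 1 or 3 was left out. Hspa1b fell by 4.33 proximally, from 425, 212 and 182 CPM to 20.3, 10.6 and 9.94 CPM, and the difference between segments of 0.36 did not pass (adjusted p = 0.95).

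**Figure D4:**
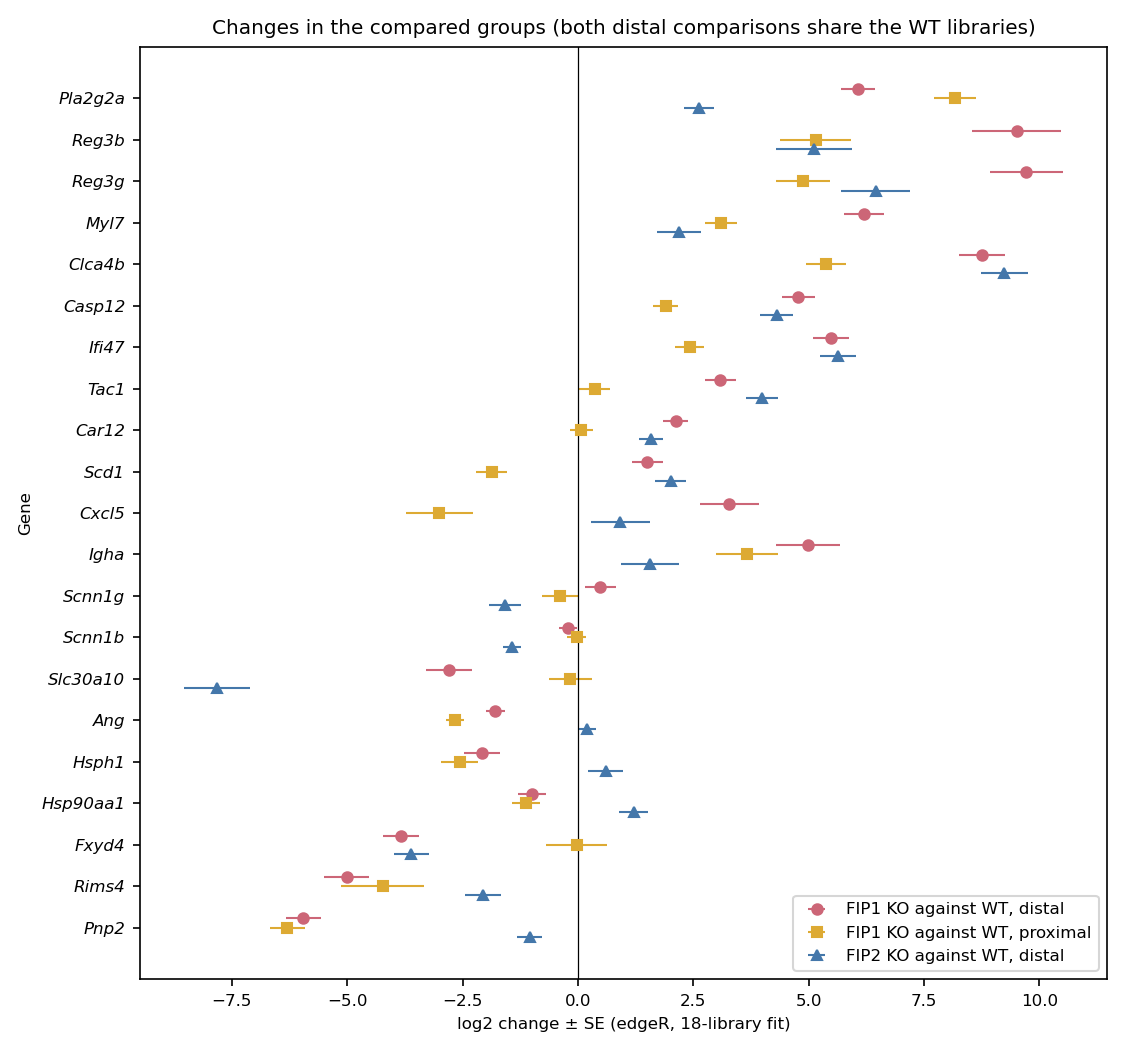
Log2 changes with their SE for 21 genes: FIP1 knockout over wild type, distal (red circles) and proximal (yellow squares), and FIP2 knockout over wild type, distal (blue triangles), which shares its controls with the red circles. Pla2g2a, Pnp2, Ang and Hsph1 differ between the knockouts, while Clca4b, Casp12, Tac1 and Car12 differ between segments.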

How the data were processed

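RNA of colon epithelium was sequenced as reads of 150 nt. The authors deposited a table of read counts per gene and a table of FPKM for 18 libraries. The submitters' processing notes name STAR 2.5, HTSeq 0.6.1, TopHat and DESeq2 without roles, and strand handling is not given in the sources used here. The deposited counts were scaled by TMM, filtered with filterByExpr (17692 genes) and fitted with edgeR 4.0.16 (quasi-likelihood, R 4.3.3) as 6 groups of 3 libraries. The 6 compared libraries held 12116329 to 16341098 counts, and 3 libraries a group limit the precision. No 2 libraries of a group agreed within sampling noise. Contrasts were FIP1 knockout against wild type and against FIP2 knockout in the distal colon, and the distal minus the proximal FIP1 effect. The FIP1 and FIP2 changes against wild type share their control libraries.

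The genes and lists were chosen with earlier results of these data known. Genes were named by a rule: the Rab11 genes; the 15 largest called rises and falls of at least 1 CPM with groups that do not overlap; up to 6 called members and the 3 most abundant members of each list; a fixed set of epithelial genes; and the 6 largest changes of the other contrasts. Of 1224 listed genes 1091 were tested. Alternatives were other scaling and filters, the compared libraries alone, a replicate block, removal of mitochondrially encoded genes, DESeq2 1.42.0, limma 3.58.1 on log2(FPKM + 1) or log2(FPKM + 0.1) of the deposited FPKM, and each library left out. The code was tested on simulated counts. Promoters are RefSeq sequences of GRCm38.p6. Intervals and floors cover counting error only. The text prints only some of the genes that this rule names, and some results are not reported here.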

Additional observations from a re-analysis of the deposited data

Results flagged for a closer look

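For 13 genes of the report the test of the distal minus the proximal FIP1 effect passed (edgeR's quasi-likelihood test, Benjamini-Hochberg adjustment over all tested genes). The distal minus the proximal change was 4.84 for Reg3g, 3.38 for Clca4b, 3.10 for Myl7, 3.06 for Ifi47, 2.87 for Casp12, 2.72 for Tac1 and 2.05 for Car12. The log2 rise of each was larger distally, which does not mean a higher knockout level there. Mean knockout levels, distal and proximal, were 363 and 2148 CPM for Reg3g, 31.8 and 36.0 CPM for Myl7 and 74.3 and 72.6 CPM for Ifi47. In wild type they were 0.430 and 73.0, 0.425 and 4.24, and 1.66 and 13.6 CPM. Clca4b reached 2322 CPM distally and 520 CPM proximally in the knockout. For Cxcl5 (6.29) and Scd1 (3.37) the changes had opposite signs, at 3.28 distally and -3.01 proximally for Cxcl5 and 1.5 and -1.86 for Scd1. For Ces1d the difference was 1.95, since it fell by 4.41 in the proximal and by 2.46 in the distal colon. For Ang4 (-6.53), Fxyd4 (-3.80) and Gsdmc3 (-2.42) the fall was found in the distal colon, with proximal changes of 0.03, -0.03 and -0.07. The proximal level of Ang4 was 126 ± 128 CPM in wild type and 128 ± 181 CPM in the knockout (SD, n = 3). Its proximal change, with an SE of 0.82, was therefore imprecise and does not show that a fall was absent. The calls for Ang4, Fxyd4, Gsdmc3, Reg3g, Myl7 and Ces1d were lost when single libraries were left out, and those for the other 7 were kept.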

How the results depend on the processing

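Without FIP1 knockout distal library 3 the distal comparison called 1775 genes, and leaving out each library gave 1775 to 2383. The other alternatives gave 1937 to 3453. On deposited FPKM with limma the calls were 1718 higher and 695 lower with a pseudocount of 1, 1647 and 597 with 0.1, and 1816 and 789 without a filter, against 1564 and 1322 on counts; the cause was not tested. By limma on log2(FPKM + 0.1) the numbers that fell were 5 for clock genes, 8 for conjugating enzymes, 5 for cytochromes P450 and 2 for sodium transport. Between the knockouts 329 genes were called in the report, 1154 without a filter, 140 at 10 CPM or more, 744 with DESeq2, 202 with limma on log2(FPKM + 0.1), and 105 to 254 with a library left out. For the segments 114 were called in the report, and the same settings gave 644, 57, 339, 57 and 40 to 154. The filters change how many genes are tested.

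Distal wild-type and FIP1 knockout libraries of the same number showed no positive correlation (-0.311, -0.0532 and -0.147). Distal and proximal libraries of a genotype were not tested for pairing. Their mitochondrially encoded shares, in number order, were 18.1, 32.33 and 22.89% distally and 21.55, 27.74 and 22.44% proximally in wild type. In the FIP1 knockout they were 14.51, 18.23 and 12.76% distally and 15.8, 19.72 and 11.52% proximally. A replicate block gave 2926, 340 and 93 calls.

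Genes that did not pass the test changed sign. With limma on FPKM, under each pseudocount and filter, Cdh1 was at 0.12, Ifngr2 at 0.13, Rab25 at 0.05 and Tff3 at 0.11. With a library left out the ranges were -0.10 to 0.04 for Cdh1, -0.10 to 0.27 for Ifngr1, -0.14 to 0.10 for Ifngr2, -0.25 to 0.36 for Muc2, -0.12 to 0.58 for Slc26a3, -0.21 to 0.11 for Tff3 and -0.10 to 0.13 for Tjp1. Over the named genes, 2396 values kept direction and side of the threshold, 92 no longer passed, 8 newly passed and 28 changed sign.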
